A study of Mus musculus with 8 samples.

Results

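Deubiquitinating enzymes were followed between mouse spermatocytes and spermatids. The members were all gene models whose symbol names a Usp, Uchl, Otud or Otub gene, Cyld, Atxn3 or Bap1. They numbered 71 of 56324 models in the deposited table. The symbol rule also takes in Uchl1os, an antisense RNA of Uchl1, and Usp6nl, a GTPase-activating protein, neither of which is a deubiquitinase. The samples were 8 RNA-seq libraries of polyadenylated RNA, 4 of spermatocytes and 4 of spermatids, both taken by gravity sedimentation from 12-week-old C57BL/6 males. All 8 libraries were labelled Sam68 -/-, so both cell types lack the RNA-binding protein Sam68 by their labels and no wild-type library entered the comparison. The levels of Khdrbs1, the gene that encodes Sam68, were 3421 to 4985 normalized counts in spermatocytes and 625 to 1129 in spermatids, which does not check the genotype. The labels do not state whether each library had its own animals, and the p-values below therefore rest on a spread between libraries that could be technical.

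Ubiquitin is attached to proteins as single units or chains, and deubiquitinases cut it off again. Usp, Uchl, Otud, Otub, Atxn3 and Bap1 proteins are cysteine proteases, which rescue substrates from the proteasome, edit chains that act as signals, and recycle free ubiquitin. In the male germ line, ubiquitin on histones is known for marking the silenced sex chromosomes in meiosis and for the later exchange of histones in spermatids. Spermatids also remove much of their cytoplasm and many organelles, and ubiquitin is known for its part in that turnover.

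The promoters below were chosen for a motif, TGACG, which each of them holds. They belong to 4 members that rose in spermatids and to Otub1, the closest relative of Otub2, which was not called. Each is the 250 bases before an annotated start, written 5′ to 3′ on the gene's own strand, from RefSeq on GRCm38.p6, the assembly behind mm10. Capitals mark TGACG, the core of the cAMP response element, or its reverse complement CGTCA.
Otub2: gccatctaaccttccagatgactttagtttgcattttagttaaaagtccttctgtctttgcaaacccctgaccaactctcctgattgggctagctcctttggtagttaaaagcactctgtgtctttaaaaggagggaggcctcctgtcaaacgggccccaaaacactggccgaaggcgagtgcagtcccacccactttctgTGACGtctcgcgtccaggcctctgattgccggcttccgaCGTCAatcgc
Usp25: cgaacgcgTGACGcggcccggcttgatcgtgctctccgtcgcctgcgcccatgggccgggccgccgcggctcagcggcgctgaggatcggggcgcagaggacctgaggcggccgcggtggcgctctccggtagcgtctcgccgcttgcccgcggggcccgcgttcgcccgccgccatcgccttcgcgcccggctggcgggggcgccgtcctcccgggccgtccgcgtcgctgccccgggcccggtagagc
Atxn3: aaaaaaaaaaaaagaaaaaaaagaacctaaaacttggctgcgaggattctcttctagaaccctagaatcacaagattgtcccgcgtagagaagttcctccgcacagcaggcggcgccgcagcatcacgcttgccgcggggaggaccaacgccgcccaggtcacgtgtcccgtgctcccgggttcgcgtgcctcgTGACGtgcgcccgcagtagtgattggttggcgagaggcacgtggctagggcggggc
Usp11: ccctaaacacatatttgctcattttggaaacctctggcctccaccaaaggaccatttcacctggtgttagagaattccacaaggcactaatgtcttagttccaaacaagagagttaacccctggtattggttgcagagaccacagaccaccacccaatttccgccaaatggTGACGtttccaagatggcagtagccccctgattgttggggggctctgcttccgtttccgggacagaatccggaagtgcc
Otub1: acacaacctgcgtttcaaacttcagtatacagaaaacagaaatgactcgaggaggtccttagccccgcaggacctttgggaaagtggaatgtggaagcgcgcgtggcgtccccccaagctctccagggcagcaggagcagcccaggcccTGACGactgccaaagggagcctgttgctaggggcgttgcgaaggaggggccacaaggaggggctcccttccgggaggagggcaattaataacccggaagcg
The Otub2 promoter lies at chr12:103388431-103388680 on the plus strand, and its matches begin 49 and 10 bases before the start. That start lies inside the Otub2 gene, and the promoter at the gene's upstream start held no match. The Usp25 promoter, chr16:77013819-77014068 on the plus strand, lies inside the deposited Usp25 model, which begins at 77013732. It has its match 242 bases before the start. The Atxn3 promoter, chr12:101958244-101958493 on the minus strand, has it 56 bases before the start. The Usp11 promoter, chrX:20703659-20703908 on the plus strand, has it 79 bases before the start. The Otub1 promoter, chr19:7206285-7206534 on the minus strand, has it 101 bases before the start.

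Promoters were found for 57 of the 71 members, 61 promoters in all. TGACG on either strand stood in 11 of 23 promoters of members that rose (47.83%), in 6 of 29 of members not called (20.69%) and in 1 of 4 of members that fell. The 11 include the Otub2 promoters chr12:103388431-103388680 and chr12:103388432-103388681, which overlap and hold the same matches. The genes that rose and held TGACG were Atxn3, Otub2, Otud1, Otud5, Usp11, Usp13, Usp16, Usp25, Usp37 and Usp38, 10 of 20 with a promoter. The other 10 held none, among them Usp50, Otud6a, Usp51, Otud4, Usp26 and Usp12. The share was 17.77% of all 32851 promoters of that length and 31.58% of the 8970 with at least 15 CpG. TGACG holds a CpG, and the median promoter had 22 CpG among members that rose, 25 among those not called and 6 over all promoters. The full element TGACGTCA was in none of the promoters of members that rose and in 1.546% of all promoters. The Myb motif GGCAGTT was in 1 of those 23, that of Usp13, and in 3.327% of all promoters. These shares are descriptions of letters in a fixed window.

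Library depth was 49000266 to 78060212 reads in spermatocytes and 60673309 to 93975960 in spermatids. Values are normalized counts, reads divided by a size factor per library, and 3 reads came to 2.42 to 4.50 normalized counts. All 10 spermatid markers were higher in spermatids, with summed levels of 19263 to 35429 in spermatocytes and 533510 to 638788 in spermatids. Of 10 spermatocyte markers 5 were lower and 5 were not called, and their sums were 220932 to 246166 against 45092 to 56157. Piwil1 alone gave 118349 to 166551 of the spermatocyte sums. The mean of log2(value + 1) over these markers was 12.19 in spermatocyte library 4 and 13.15 to 13.28 in the others. Sycp1 was at 1653 there against 12680 to 26690, and Sycp3 and Hormad1 were also lowest there. Piwil1, Mlh3 and Ccna1 were highest there. Fits without spermatocyte libraries 3 and 4 leave this library out too. The libraries also held other cells' RNA: all 15 Sertoli cell markers were lower in spermatids, and their sum was 38781, 64830, 186064 and 88857 in spermatocyte libraries 1 to 4 against 4506 to 10370 in spermatids. Of 10 macrophage and blood markers, 7 were tested and all 7 were higher in spermatids, with sums of 118 to 192 in spermatocytes, where 1 marker was at 0 in all libraries, and 2933 to 6195 in spermatids. The 2 hemoglobin genes of that list were too low to be tested. Hbb-bs went the other way, with means of 9.41 in spermatocytes and 0.67 in spermatids, and Hba-a1 had 0 and 2.69. All 7 Leydig cell markers found were lower, with sums of 4267 to 8339 against 278 to 1525. Spermatid library 1 had the highest macrophage, Sertoli and Leydig sums of its cell type, and spermatocyte library 3 the highest Sertoli sum. Of the spermatogonial markers 4 of 10 were higher and 2 lower, and of the peritubular myoid markers 4 of 5 were higher. The part of these cells in the results below was not tested. Values below without some libraries do not test it either. Spermatocyte libraries 1 and 2, kept when 3 and 4 were left out, still had Sertoli sums above those of all spermatid libraries. Where the order of libraries matched that of a marker sum, this is given below as a description. With 4 libraries such a match can arise by coincidence, and the share of all tested models that match was not worked out. The sums are also weighted by their most abundant markers. By the mean of log2(value + 1) over the Sertoli markers, spermatid library 4 stood above library 3 (7.71 and 7.70), unlike in the sums. By the same mean over the Leydig markers, spermatocyte library 1 stood above library 4 (9.65 and 9.63), again unlike in the sums.

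Deubiquitinase genes moved in both directions from spermatocytes to spermatids, as genes with a symbol did at large. A gene was called where limma's adjusted p over all tested models was under 0.05 and the log2 fold change was at least 1 in size. Of the 71 members, 66 passed the filter on low values, and 23 of these were called higher in spermatids, 8 lower and 35 not at all. The background was wide: 32.5% of all 28735 tested models were called higher and 29.8% lower, and among the 18497 tested models with a gene symbol 35.6% were higher and 21.1% lower. The members' shares called lie close to those of named genes in the higher direction and below them in the lower direction, and no test of that difference was made. The counts by role given below describe groups of at most 12 tested members and are to be read against the same shares. The members' median log2 fold change was 0.51, against -0.01 over all tested models and 0.25 over those with a symbol. These are relative levels in bulk RNA, in which fewer cells of a type and less RNA per cell cannot be told apart. With totals set equal in all libraries the median of all tested models moved to -0.44 and that of the members to 0.077, and 20 members were higher and 13 lower. With quantile normalization those counts were again 20 and 13, with medians of -0.36 over all models and 0.019 over the members. The background moved as well. Of all tested models 27.81% were higher and 37.4% lower with equal totals, and 29.07% and 36.25% with quantile normalization.

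Values of the cell types were apart for many members, as they were for many of all tested models. The 4 spermatid values all lay above the 4 spermatocyte values in 28 of the 66 tested members and below them in 13, against 34.2% and 32.2% of all tested models. The members together held 0.447%, 0.472%, 0.442% and 0.416% of all normalized counts in spermatocyte libraries 1 to 4. In spermatid libraries 1 to 4 they held 0.612%, 0.620%, 0.610% and 0.632%, so the groups did not overlap. Spermatid library 1 gave the lowest spermatid value in 16 of the 23 members that rose and the highest in 6 of the 8 that fell. Among the 35 members not called it gave the lowest in 19 and the highest in 6. The shares over all tested models were not worked out. Leaving spermatid library 1 out, 24 members were called higher and 8 lower, against 27.87% and 32.55% of all 26635 models tested then. The 5 members not tested were Uchl1os, at 0 to 3.74 normalized counts, Usp17la, at 0 but for 1.50 in spermatid library 3, and Usp17lb, Usp17lc and Usp17ld, at 0 in all 8 libraries.

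**Figure D1:**
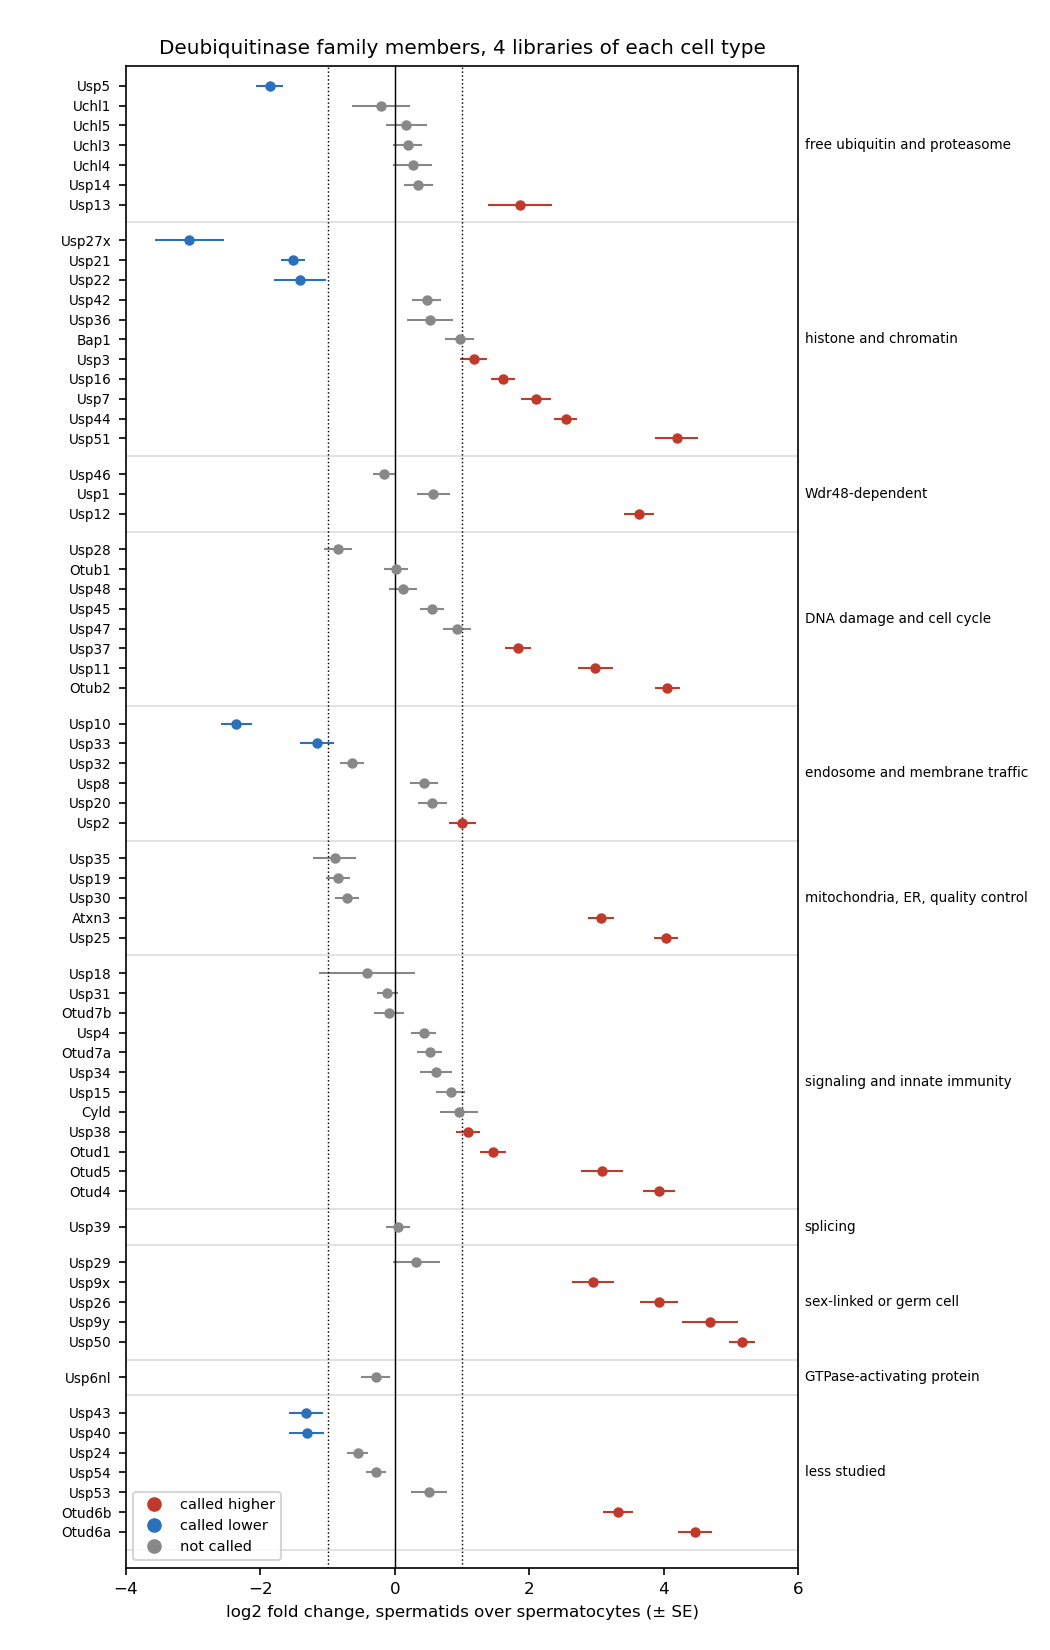
Log2 fold change, spermatids minus spermatocytes, of the 66 tested members ordered by role, with bars for the standard error, dotted lines at the fold threshold and colour for the limma call. Usp50 stands highest at 5.17 and Usp27x lowest at -3.06, and most role groups hold members on both sides of 0.

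The largest rise was that of a germ cell member, Usp50, a Usp protein regarded as catalytically inactive. Usp50 (chr2:126709098-126783462, minus strand) had 268, 305, 338 and 291 normalized counts in spermatocytes and 8341, 9787, 13146 and 12821 in spermatids. No spermatid value came near a spermatocyte value, and the means differed 36.7-fold (log2 fold change 5.17 ± 0.19, standard error; limma adjusted p = 1e-09). The deposited Usp50 model spans most of the Usp8 model beside it (chr2:126707327-126759314), although the annotated exons do not overlap, and the strand setting of the counting is not given in the sources used here. Usp8, which sorts receptors at endosomes, was not called, with 21965, 22345, 12875 and 16267 in spermatocytes and 18941, 28355, 26138 and 24530 in spermatids. Its groups overlapped (log2 fold change 0.44, limma adjusted p = 0.085). The log2 ratio of Usp8 to Usp50 therefore went from 5.90 ± 0.49 (SD, n = 4) to 1.16 ± 0.27.

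Sex-linked members rose with 1 exception. All 7 X-linked members were tested, 6 were called higher and 1, Usp27x, lower. On the X chromosome as a whole 66.8% of 831 tested models were called higher and 12% lower, so 6 of 7 lies near the chromosome's own level. The X-linked members' median log2 fold change was 3.08, against 2.71 for all X-linked models and 0.43 for the 58 tested autosomal members, of which 16 were higher and 7 lower.

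Usp26, a testis-specific deubiquitinase (chrX:51753959-51801236), had 118, 155, 178 and 81.1 normalized counts in spermatocytes and 2708, 1541, 1806 and 1947 in spermatids. The lowest spermatid library was still far above the highest spermatocyte library (3.93 ± 0.28, limma adjusted p = 1.1e-07). Among spermatids its order followed the macrophage marker sums, as did that of Usp3 and of no other member that rose. Otud6a, an X-linked relative of Otud6b with few known functions (chrX:100429013-100429885), had 35.5, 37.3, 23.5 and 38.8 against 674, 706, 844 and 812, a difference of 4.47 ± 0.25 (limma adjusted p = 1.7e-08). Its autosomal relative Otud6b rose as well, from a mean of 464 to 4734 (3.32 ± 0.23).

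Usp9x (chrX:13071495-13173328), a large enzyme that acts in adhesion, protein stability and growth signaling, had 371, 783, 1202 and 470 normalized counts in spermatocytes. It had 4359, 5313, 4977 and 5029 in spermatids, all above the spermatocyte values (2.94 ± 0.31, limma adjusted p = 3.3e-06). Its Y-linked homologue Usp9y (chrY:1298961-1459782) had 52.4, 88.3, 78.3 and 18.3 in spermatocytes and 1095, 1387, 1396 and 1524 in spermatids. The difference of 4.69 ± 0.42 (limma adjusted p = 7.4e-07) exceeded that of Usp9x, and the log2 ratio of Usp9x to Usp9y dropped by 1.75. Usp9x stayed the more abundant homologue in both cell types. The models are close relatives, and how reads shared by both were counted is not given in the sources used here.

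Usp11 (chrX:20703909-20720539), which acts in homologous recombination repair, had 118, 86.4, 188 and 156 normalized counts in spermatocytes and 1210, 1118, 982 and 911 in spermatids. The groups were far apart (2.98 ± 0.26, limma adjusted p = 7.2e-07), and its promoter is among those shown with TGACG. Otud5 (chrX:7841831-7876620), which restrains innate immune signaling, had 119, 149, 372 and 242 against 1622, 1656, 1810 and 1712 (3.08 ± 0.31, limma adjusted p = 2.4e-06). The order of its spermatocyte libraries was that of their Sertoli marker sums, which held for no other member that rose.

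**Figure D2:**
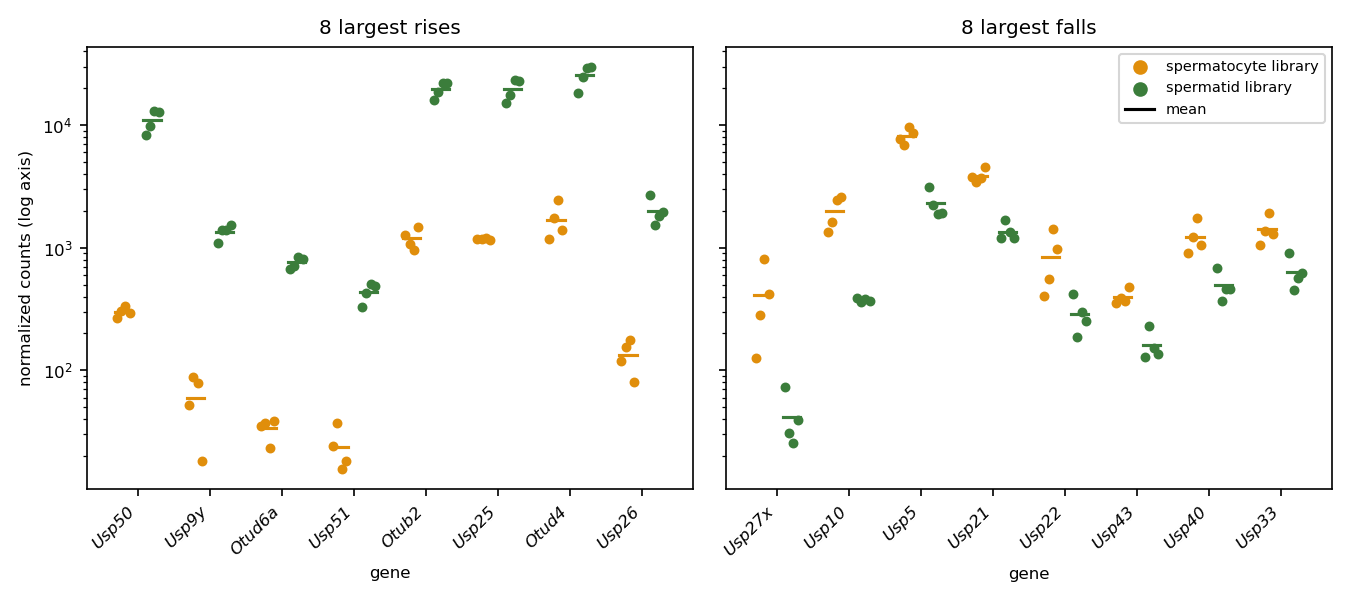
Normalized counts on a log10 axis in each of the 8 libraries for the 8 members with the largest rises (left) and the 8 with the largest falls (right), with 1 point per library, a bar at the mean and colour for the cell type. The spermatid points of Usp50, Otub2 and Usp25 sit above all their spermatocyte points, and those of Usp22 overlap them.

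Of the 11 tested members that act on histones, 5 were higher and 3 lower, near the 35.6% and 21.1% of tested models with a symbol. Usp22, Usp27x and Usp51 are alternative catalytic subunits that remove ubiquitin from histone H2B together with the shared subunits Atxn7l3 and Eny2. Usp51 (chrX:153006469-153009441) had 24.2, 37.3, 15.7 and 18.3 normalized counts in spermatocytes and 327, 426, 509 and 489 in spermatids, and rose by 4.20 ± 0.32 (limma adjusted p = 2.1e-07). Usp27x (chrX:7371276-7375827) had 126, 281, 810 and 417 in spermatocytes and 72.5, 30.8, 25.5 and 39.2 in spermatids, and fell by 3.06 on the log2 scale (standard error 0.51, limma adjusted p = 0.00017). It was the X-linked member that moved against the chromosome, and its spermatocyte values spanned from 126 to 810. Usp22 (chr11:61151781-61175060), the subunit of the SAGA complex, had 401, 553, 1419 and 970 against 421, 189, 300 and 253. Its groups overlapped, since spermatid library 1 lay above spermatocyte library 1 (-1.41 ± 0.38, limma adjusted p = 0.0053).

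In spermatocytes the order of the libraries for Usp22 and Usp27x was that of the Sertoli marker sums, lowest in library 1 and highest in library 3. These were 2 of the 8 members that fell. The order also held for 2 of the 35 members not called, Usp39 and Usp54, and for 1 of the 23 that rose, Otud5. Without spermatocyte libraries 3 and 4, which had the highest Sertoli sums, Usp22 was at -0.75 and no longer called (limma adjusted p = 0.041). Under the same omission Usp27x stayed called at -2.25 and Usp51 at 3.80. The log2 ratio of Usp27x to Usp51 turned from 3.81 ± 1.49 (SD, n = 4) in spermatocytes to -3.44 ± 0.90 in spermatids, and that of Usp22 to Usp51 from 4.98 ± 1.26 to -0.63 ± 0.68. The shared subunits, taken up after their values were seen, were both lower in spermatids: Atxn7l3 at -1.01 ± 0.19 (limma adjusted p = 0.00045) and Eny2 at -1.22 ± 0.30 (limma adjusted p = 0.0027).

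**Figure D3:**
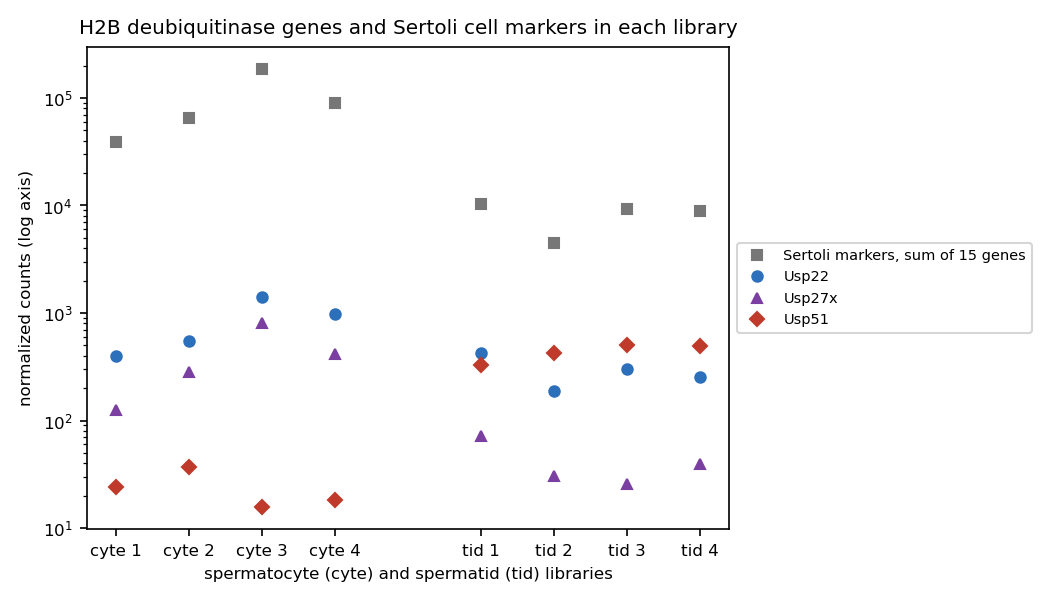
Normalized counts (log10 axis) of Usp22, Usp27x and Usp51 and the sum of 15 Sertoli markers in each spermatocyte (cyte) and spermatid (tid) library on the horizontal axis. Usp22 and Usp27x take their highest values in spermatocyte library 3, where the Sertoli sum is 186064, and Usp51 is at 15.7 there.

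Among the other histone-linked members, Usp7 was the most abundant that rose. Usp7 (chr16:8688722-8792309), which stabilises Mdm2 and Polycomb proteins, had 14431, 17079, 15897 and 9262 normalized counts in spermatocytes and 43604, 61486, 66591 and 68142 in spermatids. The groups were apart by a wide gap (2.10 ± 0.23, limma adjusted p = 3.8e-06). Usp44, which acts on H2B and at the spindle checkpoint, rose from a mean of 824 to 4785 (2.54 ± 0.17). Usp16, an enzyme for ubiquitinated H2A, rose from 5252 to 15930 (1.61 ± 0.18), and Usp3, another, from 507 to 1159 (1.17 ± 0.20).

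Usp21, which also acts on H2A, moved the other way. It (chr1:171281955-171287962) had 3743, 3452, 3724 and 4543 normalized counts in spermatocytes and 1196.5, 1683, 1333 and 1206 in spermatids, with no overlap (-1.52 ± 0.18, limma adjusted p = 7.7e-06). The order of its spermatocyte libraries was that of the Leydig marker sums, which held for no other member that fell. It was not the order of the mean log2 Leydig levels, in which libraries 1 and 4 change places. Usp21 itself hardly differed between libraries 1 and 3 (3743 and 3724). Bap1, the H2A deubiquitinase of the Asxl complexes, had non-overlapping groups but a log2 fold change of 0.96, just under the fold threshold (limma adjusted p = 0.0014). It was called higher when a trend with GC content was removed from each library (1.34). The same held without spermatid library 1 (1.06), spermatocyte library 1 (1.01) or spermatocyte library 4 (1.08). Usp36, a nucleolar enzyme, and Usp42 were not called, the latter at 0.47.

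Among the 3 members that bind the activator Wdr48, only Usp12 was called. Usp12 (chr5:146734812-146795007) had 795, 1014, 1389 and 829 normalized counts in spermatocytes and 9456, 11205, 14607 and 14173 in spermatids (3.63 ± 0.22, limma adjusted p = 2.9e-08). Its close relative Usp46 had 1415, 1683, 1617 and 1497 against 1235, 1289, 1593 and 1454, which overlapped (-0.16 ± 0.17, limma adjusted p = 0.4). The log2 ratio of Usp12 to Usp46 went from -0.66 ± 0.30 (SD, n = 4) to 3.13 ± 0.15, so the less abundant of the pair in spermatocytes was the more abundant in spermatids. Usp1, which acts in interstrand crosslink repair, was at 35694, 40129, 24842 and 20094.5 in spermatocytes and 30883, 52036, 48060 and 44969 in spermatids. Its groups overlapped (0.57 ± 0.25, limma adjusted p = 0.054). Wdr48 itself was at a mean of 49856 and 46015 (-0.12 ± 0.20).

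Of the 8 members that act in DNA damage and the cell cycle, 3 were higher, near the 35.6% of models with a symbol, and none was lower. Otub2 (chr12:103376892-103406350), which tunes ubiquitin signals at DNA breaks, had 1275, 1075, 955 and 1470 normalized counts in spermatocytes and 16061, 18660, 22242 and 22161 in spermatids. Every spermatid value lay far above the highest spermatocyte value (4.06 ± 0.19, limma adjusted p = 3.4e-09). Otub1, which also blocks the conjugating enzyme that makes those signals, had 1171, 1373, 1624 and 1802 against 1441, 1510, 1573 and 1465. Its groups overlapped (0.02 ± 0.18, limma adjusted p = 0.91), and its direction was negative with equal totals (-0.41) and quantile normalization (-0.33). The log2 ratio of Otub1 to Otub2 went from 0.32 ± 0.36 (SD, n = 4) to -3.71 ± 0.20.

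Usp37, which stabilises cyclin A, rose from a mean of 5059 to 18062 (1.83 ± 0.20, limma adjusted p = 3.5e-06). Usp28, which stabilises Myc, had 1018, 1275, 1558 and 1583 normalized counts in spermatocytes and 954, 719, 641 and 691 in spermatids. The groups did not overlap, but the log2 fold change of -0.85 ± 0.21 stayed short of the fold threshold (limma adjusted p = 0.0031). With equal totals it was called at -1.28, and with quantile normalization at -1.19. Usp45, Usp47 and Usp48 were not called, at 0.55, 0.93 and 0.12. Usp47 was called higher without spermatocyte library 1 (1.00) or spermatocyte library 2 (1.05).

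Protein quality control held a pair of large rises. Usp25 (chr16:77013732-77116779), which rescues substrates of degradation at the endoplasmic reticulum, had 1179, 1185, 1205 and 1151 normalized counts in spermatocytes and 15069, 17763, 23198 and 22905 in spermatids. Its spermatocyte libraries were close together (1180 ± 22.6, SD, n = 4), and the rise was 4.04 ± 0.18 (limma adjusted p = 2.3e-09). Usp25 is the closest relative of Usp28, and the log2 ratio of Usp25 to Usp28 went from -0.18 ± 0.30 to 4.71 ± 0.54. Atxn3 (chr12:101918903-101958243), the enzyme whose expanded form causes Machado-Joseph disease, works with the segregase Vcp. It had 3331, 3115, 2125 and 2501 in spermatocytes and 18793, 21841, 26753 and 24900 in spermatids, and none of these overlapped (3.07 ± 0.19, limma adjusted p = 3.9e-08). The other members of this group were not called: Usp19, anchored in the endoplasmic reticulum, was at -0.84, Usp30, which opposes mitophagy, at -0.71, and Usp35 at -0.90. All 3 were called lower with equal totals (-1.28, -1.15 and -1.33 in that order) and with quantile normalization (-1.40, -1.04 and -1.28). The order of the spermatocyte libraries for Usp19 was that of their Leydig marker sums, but not that of their mean log2 Leydig levels.

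Of the members that handle free ubiquitin or sit on the proteasome, 1 of 7 fell and 1 rose (background 21.1% lower and 35.6% higher among models with a symbol). Usp5 (chr6:124815019-124829447), which takes apart unanchored ubiquitin chains, had 7644, 6892, 9685 and 8633 normalized counts in spermatocytes and 3138, 2228, 1886 and 1930 in spermatids. The groups were apart (-1.86 ± 0.20, limma adjusted p = 3.9e-06). Its relative Usp13 rose by 1.87 ± 0.47 from a mean of 8.50 to 31.1 (limma adjusted p = 0.0035), a level near the limit of 3 reads in spermatocytes. The proteasome-bound Usp14 and Uchl5 were not called, at 0.35 and 0.17. Usp14 shares 2169 exon bases, 26.0% of its own, with Thoc1 on the opposite strand, so reads of the 2 genes may be mixed.

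Uchl1, a hydrolase known from neurons and spermatogonia, had 284, 256, 754 and 639 normalized counts in spermatocytes and 808, 241, 291 and 346 in spermatids, which overlapped widely (-0.21 ± 0.44, limma adjusted p = 0.68). Its spermatid order was that of the macrophage marker sums, with library 1 highest. Uchl3, the broadly expressed member, was at 0.19 and its single-exon relative Uchl4 at 0.27, and reads may be shared between them.

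Of the 6 tested endosomal and membrane members, 2 fell and 1 rose (background 21.1% lower and 35.6% higher among models with a symbol). Usp10 (chr8:119910360-119957557), which binds the stress granule protein G3bp1, had 1339, 1615, 2446 and 2572 normalized counts in spermatocytes and 392, 359, 380 and 365 in spermatids. Its spermatid values lay within a narrow range (374 ± 15.1, SD, n = 4), far below the spermatocyte values (-2.36 ± 0.23, limma adjusted p = 1.8e-06). Without spermatocyte libraries 3 and 4 the value was -1.97. G3bp1 was lower as well, at -2.48 ± 0.24 (limma adjusted p = 1.3e-06), from a mean of 2028 to 376. Usp33, which recycles adrenergic receptors, had 1049, 1379, 1935 and 1290 against 898, 456, 569 and 619 (-1.16 ± 0.25, limma adjusted p = 0.0012). It lost its call without spermatocyte libraries 3 and 4 (-0.96), and its spermatid order was that of the macrophage marker sums. The spermatid order of Usp10, Usp22 and Usp40 was that of the Sertoli marker sums, which held for no other tested member. It was not the order of the mean log2 Sertoli levels, in which libraries 3 and 4 change places. Usp40 hardly differed between those libraries (457.9 and 457.1), and Usp10 spanned only 359 to 392. Usp2, needed for normal male fertility in mice, rose from a mean of 21672 to 42950, at 1.01 just past the fold threshold (limma adjusted p = 0.00064). Usp20 and Usp32 were not called, at 0.56 and -0.63, but Usp32 was called lower with equal totals (-1.07) and quantile normalization (-1.20).

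Of the 12 tested members in signaling and innate immunity, 4 were higher, near the 35.6% of models with a symbol, and none was lower. Otud4 (chr8:79639676-79677755), which acts in DNA alkylation repair and innate immune signaling, had 1187, 1761, 2441 and 1405 normalized counts in spermatocytes and 18112, 24699, 29415 and 29736 in spermatids. The groups were apart (3.93 ± 0.24, limma adjusted p = 3.5e-08). Otud1 rose from a mean of 820 to 2245 (1.46 ± 0.19) and Usp38 from 1019 to 2137 (1.09 ± 0.18). Usp34, which acts on axin in Wnt signaling, had 29348, 39021, 22266 and 17230 against 36681, 46560, 36484 and 38464. Its groups overlapped through spermatocyte library 2, and it was not called (0.61 ± 0.24, limma adjusted p = 0.034).

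Cyld, which limits NF-kappaB signaling, had a mean of 299 and 588 with no overlap, and at 0.96 missed the fold threshold (limma adjusted p = 0.0082). It was called higher with edgeR (1.01) and without spermatid library 2 (1.09), spermatid library 3 (1.02) or spermatocyte library 3 (1.11). Its spermatid libraries, too, were ordered as the macrophage marker sums. Usp4 and Usp15, which act in TGF-beta signaling, were at 0.43 and 0.84, Usp31 at -0.11, and Otud7a and Otud7b at 0.52 and -0.09. Usp18, which removes the ubiquitin-like Isg15, ranged from 3.22 to 72.7 normalized counts and had no clear direction (-0.41 ± 0.71).

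The remaining members were Usp39, an inactive Usp protein of the spliceosome, at 0.05, and the less studied ones. Usp43 had 355, 393, 369 and 475 normalized counts in spermatocytes and 128, 228, 153 and 136 in spermatids, with no overlap (-1.33 ± 0.25, limma adjusted p = 0.00043). It lost its call when a trend with GC content was removed from each library (-0.93). Usp40 had 911, 1213, 1753 and 1045 against 689, 368, 458 and 457, again without overlap (-1.31 ± 0.26, limma adjusted p = 0.00058). Usp24, Usp53 and Usp54 were not called, at -0.55, 0.51 and -0.28. The imprinted Usp29 was low in both cell types, with means of 64.6 and 79.3 normalized counts, and Usp6nl was at -0.28.

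Ratios between related members were compared within each library. Of 24 pairs of relatives or partners in which both were tested, 18 had log2 ratios that did not overlap between the cell types. Over all 2145 pairs of tested members the share without overlap was 68.3%, so relatives stood near the level of pairs at large. The ratio was lower in spermatids in 10 of these pairs and higher in 8. Each of the 18 reached the smallest two-sided exact permutation p that 4 against 4 libraries allow, 0.0286, or 0.0381 with Benjamini-Hochberg adjustment over the 24 pairs. Any ratio without overlap gives that p, so it only restates the lack of overlap. The largest change was that of Usp27x to Usp51, followed by Usp22 to Usp51, Usp25 to Usp28, Usp8 to Usp50, Otub1 to Otub2 and Usp12 to Usp46. In the pair Usp5 and Usp13 the log2 ratio dropped by 3.73 while Usp5 remained the more abundant. Ratios overlapped for Usp4 to Usp15, Usp36 to Usp42, Usp14 to Uchl5, Otud7b to Otud7a, Uchl3 to Uchl1 and Uchl3 to Uchl4. For these 6 pairs no divergence was detected, which does not show that the genes move alike.

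**Figure D4:**
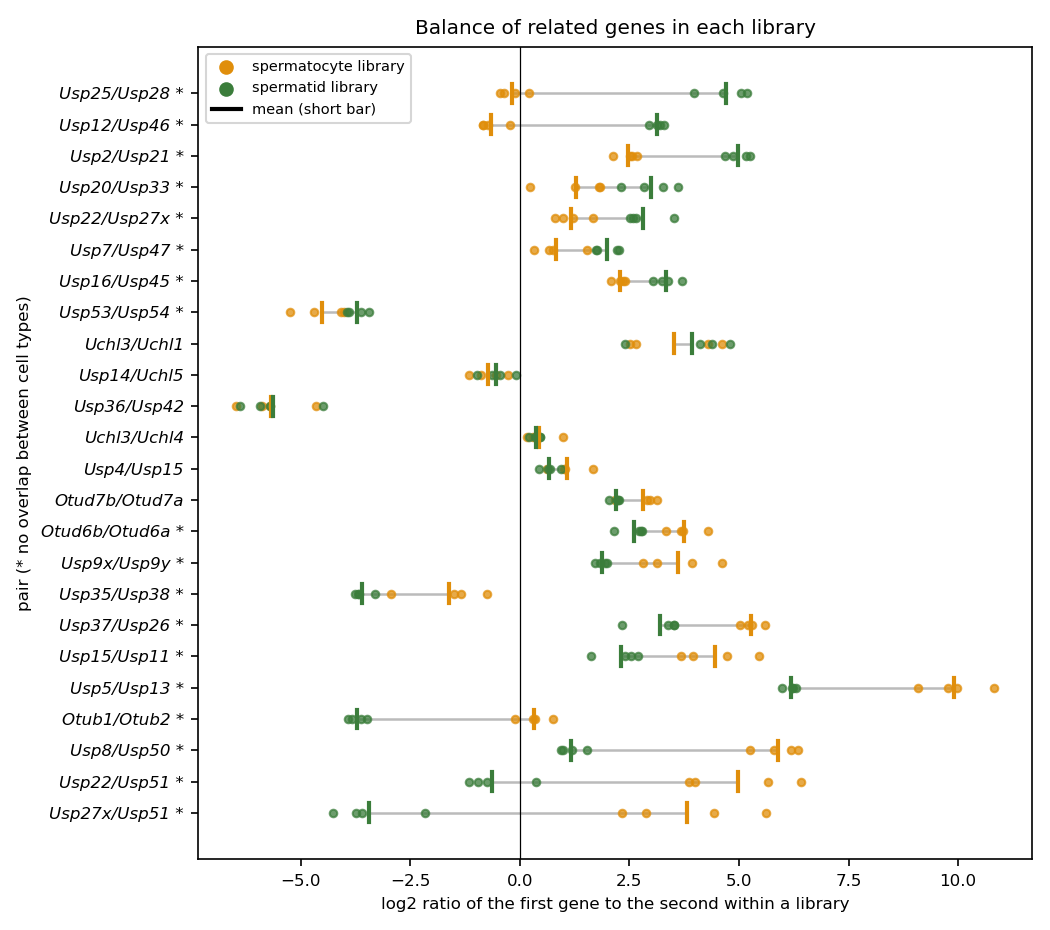
Log2 ratio of the first to the second gene of each pair, with 1 point per library, a short bar at the mean and colour for the cell type, and a star where the cell types do not overlap. For Usp27x/Usp51, Usp22/Usp51, Otub1/Otub2, Usp25/Usp28 and Usp12/Usp46 the mean ratio changes sign between the cell types.

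Per kilobase of annotated exon, the order of the members was reshuffled. In spermatocytes Usp1 led with 8087 normalized counts per kilobase, followed by Usp2 with 4498 and Usp8 with 4379. In spermatids Usp1 had 11783, Usp2 8915 and Usp7 7720, which had been at 1824. Otub2, at 323 in spermatocytes, reached 5353 in spermatids, close to the 5841 of Usp8. Atxn3 went from 512 to 4267, Usp25 from 227 to 3794 and Usp50 from 96.8 to 3550. The lowest tested members were Usp13, at 1.12 and 4.10, and Usp29 and Usp18, at 4.39 and 4.50 in spermatids.

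**Figure D5:**
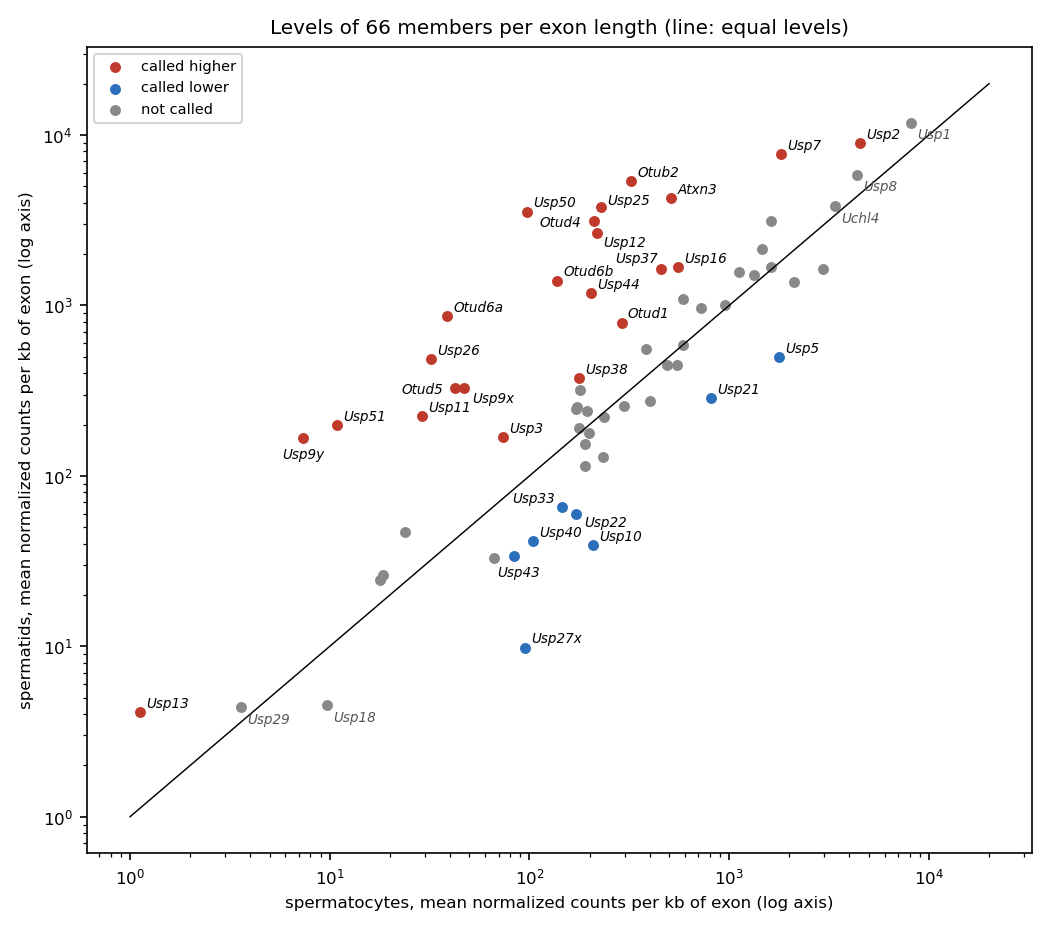
Mean level per kilobase of annotated exon in spermatids against spermatocytes, both axes log10, with 1 point per tested member and colour for the call. Otub2, Usp25 and Usp50 lie far above the line of equal levels at 3550 to 5353, and Usp1 is highest in both cell types.

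Median GC content was highest in the members that fell. Taken from the longest annotated transcript of each gene, it was 47.32% in members that rose, 52.46% in those that fell and 47.26% in those not called. Across the 66 tested members Spearman's rho of GC content with the log2 fold change was -0.288, and across 17971 tested genes with a GC value it was -0.100. These are descriptions across genes that share the same libraries. With the GC trend removed in each library, 24 members were higher and 7 lower, against 37.55% and 19.24% of the 17971 genes tested in that fit.

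Deubiquitinases outside the symbol rule, from the JAMM, Josephin, MINDY and other families, moved in both directions too. Of 22 such genes, all tested, 4 were higher and 6 lower (background 35.6% and 21.1% of models with a symbol), with a median log2 fold change of -0.45. The largest rise was that of Stambpl1, with 243, 351, 274 and 260 normalized counts in spermatocytes and 8211, 11374, 13373 and 13008.5 in spermatids (5.33 ± 0.20, limma adjusted p = 1.1e-09). Its close relative Stambp, which acts on endosomal cargo, went the other way, from a mean of 7335 to 707 (-3.37 ± 0.22, limma adjusted p = 4.6e-08). X-linked Alg13, whose protein joins an OTU domain to a glycosyltransferase, was higher at 4.51, and Zufsp, an enzyme of DNA damage sites, was lower at -3.60. Psmd14, the deubiquitinase built into the proteasome lid and chosen here after its value was seen, was lower at -1.24 ± 0.29 (limma adjusted p = 0.0019).

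Of 30 partner genes of deubiquitinases, 5 were higher and 8 lower (background 35.6% and 21.1% of models with a symbol), and the median was 0.01. Over all tested models 32.5% were higher and 29.8% lower. The share of partners higher lies below both backgrounds and the share lower between them, and no test of these differences was made. The count lower was 4 with the GC trend removed and 5 with edgeR, fits in which 19.24% and 30.03% of all tested models were lower. Besides G3bp1, the larger falls included Asxl2, a subunit of Bap1 complexes, at -1.99 ± 0.19. The larger rises were those of its relative Asxl3, at 2.41 ± 0.47 from a mean of 31.3 to 153, and of Stam, which works with Usp8 at endosomes, at 1.50 ± 0.19. The partner of Atxn3, Vcp, was lower at -1.53 and was chosen after its value was seen.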

How the data were processed

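The deposited signal was made by the authors from read counts scaled to a size factor for each library (DESeq normalization, per the file headers and name). The submitters' processing notes name STAR 2.4.0, SAMtools, Picard, FastQC, DESeq and mm10. The sources used here do not give the counting tool, strand setting or filters, so reads of overlapping, antisense or near-identical genes may be mixed. In every library 100% of deposited values above 0 were within 10% of the step for 1 read from a whole number, which recovered 49000266 to 93975960 reads per library; 8 further columns of per-sample values were not used. A model was fitted where 4 or more libraries reached 10 normalized counts, using limma 3.58.1 (R 4.3.3; trend and robust) on log2(value + 1), a scale that understates changes of low genes, with Benjamini-Hochberg adjustment over all 28735 tested models. Calls needed an adjusted p under 0.05 and a log2 fold change of at least 1. The recovered counts were tested with edgeR 4.0.16 and DESeq2 1.42.0 as alternatives; edgeR called 32.26% of models higher and 30.03% lower and DESeq2 32.08% and 30.18%. The scripts were tested on simulated data. Values by library are given for the 8 largest rises and falls, the X- and Y-linked members, the 3 most abundant, and the members of the 6 pairs with the largest change. Atxn3 and Uchl1 are given by library outside that rule, chosen after their values were seen. From the other lists the 2 largest called changes in each direction are named. The members and lists were chosen with earlier results of these data known.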

Additional observations from a re-analysis of the deposited data

How the results depend on the processing

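Across 20 alternative fits, 24 of the 31 called members kept their call in every one. The exceptions were Usp2, Usp3, Usp38, Usp22, Usp33, Usp43 and Usp13, which the filter of 50 left out. Usp2 lost its call in 9 settings, with log2 fold changes from 0.44 to 0.999. Usp3 and Usp38 lost theirs with equal totals (0.74 and 0.65) and quantile normalization (0.85 and 0.73). Usp33 was at -0.997 without spermatocyte library 3. The count of members called lower was 13 with equal totals, with quantile normalization and with a log2 fold threshold of 0.58, and the members' median was 0.077 with equal totals and 0.019 with quantile normalization. Of all tested models 37.4% were lower with equal totals and 36.25% with quantile normalization, against 29.8% in the main fit. The share at the threshold of 0.58 was not worked out. Other deubiquitinases called lower were 10 with quantile normalization. Partners called higher were 2 with equal totals or quantile normalization and 10 with the threshold of 0.58. Partners called lower were 4 with the GC trend removed and 5 with edgeR, and 5 to 9 over the fits without one library, with the 5 reached without spermatid library 4 and without spermatocyte library 4. Members called higher were 22 to 25 and lower 8 over those fits, in which 27.14% to 35.92% of all tested models were higher and 22.48% to 32.55% lower. No called member changed sign. Of the 35 members not called, 15 changed sign in at least 1 fit without being called there: Otud7b, Uchl1, Uchl3, Uchl4, Uchl5, Usp14, Usp18, Usp29, Usp39, Usp4, Usp42, Usp48, and, of those given by library under the rule, Otub1 (-0.41 with equal totals, -0.33 with quantile normalization, and -0.087 to 0.12 over the fits without one library, with -0.00083 without spermatid library 3, -0.087 without spermatocyte library 1 and -0.010 without spermatocyte library 2), Usp1 (-0.011 with quantile normalization) and Usp8 (-0.00075 with equal totals, -0.11 with quantile normalization). The causes were not tested. No paired analysis was possible because the replicate numbers are only the order of the records. Usp13 and the members not tested had values near or under that of 3 reads in at least one cell type.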
